A study of Mus musculus with 12 samples.

Results

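Dendritic and monocyte-primed wells were 212 of 2651 eligible wells of single fetal blood progenitors, chosen by the level of 5 genes: Irf8, Mpeg1, H2-Aa, Ccr2 and Ccr9. Each well had received a sorted LSK cell (negative for lineage markers, positive for Sca-1 and Kit), a fraction that holds stem cells and multipotent progenitors of the blood. A well was eligible with at least 3000 UMIs (unique molecular identifiers, 1 per captured mRNA molecule) and under 5 UMIs of the macrophage genes C1qa, C1qb and C1qc together per 10000 UMIs. Its score was the mean over the 5 genes of log2(1 + UMIs per 10000), and the top 8% over all plates were taken as members. The score genes therefore chose the wells, and their values in members are a description without a test.

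The cells came from fetal liver of C57BL/6J mice at embryonic day 18.5. The 12 plates covered 4 genotypes. The double mutant, homozygous for both Pcna K164R and the Rev1 knockout, had 4 plates, the Rev1 knockout alone had 3, homozygous Pcna K164R alone had 2, and wild type (WT) had 3. Rev1 is a translesion polymerase, and K164R removes the lysine of Pcna, the replication clamp, that is ubiquitinated when a fork meets damaged template. Plates were sorted on 3 days, called sessions here, and WT plates never shared a flow cell with double mutant plates. The labels name no animal for any plate, so p-values measure the spread from plate to plate, part of which may be technical.

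Dendritic cells present antigen to T cells on MHC class II, and monocytes circulate and give rise to macrophages and some dendritic cells. Both descend from progenitors that depend on the transcription factor Irf8. Mpeg1 encodes perforin-2, a pore-forming protein of phagocytes, and H2-Aa the alpha chain of the class II molecule I-A. Ccr2 is the receptor by which monocytes follow Ccl2 out of the marrow. Ccr9 is the receptor for Ccl25 and is carried by plasmacytoid dendritic cells and by lymphoid progenitors that home to the thymus.

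Depth and the targeted gene were examined first. Eligible wells of a plate held 99301 to 11217042 UMIs in all, and median UMIs per well were 15478.5 in members and 18360 in other eligible wells. Over eligible wells, Rev1 stood at 1.34, 2.44, 0 and 14.7 CPM (UMI counts scaled to the same total in every sum) in double mutant replicates 1 to 4, at 6.02, 1.28 and 3.97 CPM in the Rev1 knockout, at 11.4 and 8.21 CPM in Pcna K164R, and at 11.6, 20.3 and 13.1 CPM in WT. The library labelled double mutant replicate 4 lay within the WT range and so goes against its label for this gene, although a 3' tag may lie outside the deleted part. It held 0 members of 78 eligible wells, so it enters the shares of members and no gene fit. Double mutant replicate 3 had 15 eligible wells and 3 members, and the gene fits used the other 10 plates, with 209 member wells and 2349 other wells.

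The score genes were seldom seen together. Of the 212 members, 75 held UMIs of 1 score gene, 77 of 2, 42 of 3, 16 of 4 and 2 of all 5. Irf8 was seen in 67.5% of members and 22.6% of other eligible wells, and Ccr9 in 57.5% of members and 9.84% of other wells. Mpeg1 was seen in 42.5% of members and 6.19% of other wells, Ccr2 in 22.2% and 1.52%, and H2-Aa in 12.7% and 2.91%. For background, the 8% of eligible wells with the highest erythroid score, members left out, at a median of 44311 UMIs, gave 10.05% for Irf8, 8.13% for Ccr9, 16.3% for Mpeg1, 0.957% for Ccr2 and 4.31% for H2-Aa. The shares of other wells with Mpeg1 or H2-Aa lay below this background and are not read as expression. Other eligible wells were shallower, at a median of 18360 UMIs, so a lower share does not show that these genes were absent.

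**Figure D1:**
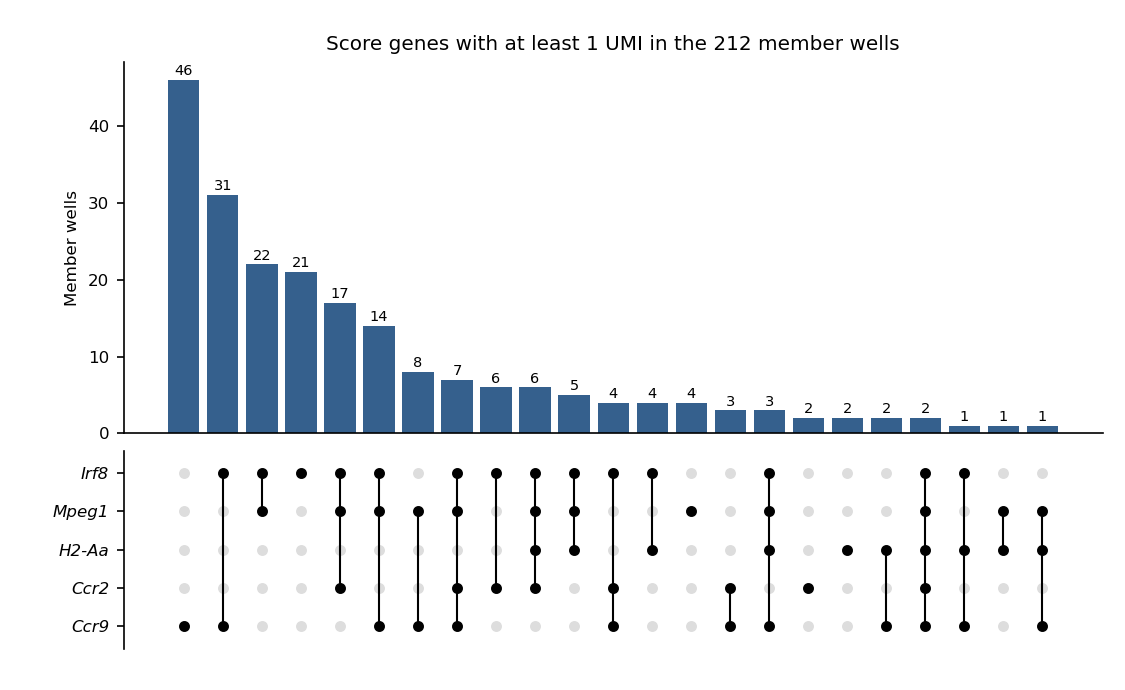
Number of member wells (bars) with each combination of the 5 score genes, where black dots in the lower panel mark the genes with at least 1 UMI. Ccr9 alone makes the tallest bar, with 46 of 212 wells, ahead of Irf8 with Ccr9 (31) and Irf8 with Mpeg1 (22).

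As the plot of combinations shows, the largest was Ccr9 alone, in 46 wells or 21.7% of members, followed by Irf8 with Ccr9 in 31, Irf8 with Mpeg1 in 22, Irf8 alone in 21 and Irf8 with Mpeg1 and Ccr2 in 17. Irf8 was present in 84.4% of the 90 members with Mpeg1, in 89.4% of the 47 with Ccr2, in 77.8% of the 27 with H2-Aa and in 50.8% of the 122 with Ccr9. Mpeg1 was present in 28.7% of the members with Ccr9. The threshold on the score ran between wells that differed by a few molecules. The lowest member, a well of Rev1 knockout replicate 3 with 16600 UMIs, scored 0.364181 from 1 Irf8 and 2 Ccr9 UMIs. The highest well outside, of Rev1 knockout replicate 2 with 25884 UMIs, scored 0.36383 from 4 Irf8 UMIs and 1 Mpeg1 UMI. Of eligible wells, 1550 (58.5%) scored 0, and the median and highest member scores were 0.561 and 3.96. With each well first thinned to 3000 UMIs, 124 of the 212 members (58.5%) were again among the top 8%.

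Levels of the score genes in members varied from plate to plate. Irf8 (chr8:120736358-120756694, GRCm38.p6) stood at 149 to 431 CPM with a median of 269 over 10 plates in members, against 12.3 to 26.6 with a median of 14.3 in other wells. Ccr9 (chr9:123767211-123783457) ranged over 82.6 to 422 CPM in members (median 229), against 2.84 to 9.77 in other wells (median 6.91). Mpeg1 (chr19:12460770-12465285) ranged over 61.3 to 189 CPM in members (median 92.4), against 0.697 to 10.9 in other wells (median 3.65). For these genes no plate's member value reached down to the other wells, as the choice of wells requires. Ccr2 (chr9:124101918-124109140) ranged over 7.10 to 93.7 CPM in members (median 45.1), against 0 to 1.74 in other wells (median 0.987). H2-Aa (chr17:34282744-34287823) ranged over 0 to 200 CPM in members (median 1.80), against 0 to 6.91 in other wells (median 0.727), and was higher in members on 5 of 10 plates. It was the score gene that members lacked most often.

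Wells were also chosen by the other 4 genes, so that the left-out score gene had no part in that choice of wells. The 5 genes themselves were picked with earlier results of these data known. The p-values are therefore no independent support that the 5 genes go together. In wells so chosen, Irf8 averaged 199.75 ± 111 CPM against 18.9 ± 8.84 in the remaining wells (SD, n = 11 plates), a log2 difference of 3.36 ± 0.15 (SE) with an edgeR adjusted p of 1.61e-16. Mpeg1 was higher by 3.72 ± 0.22 on the log2 scale (adjusted p = 1.87e-15), and Ccr2 by 5.04 ± 0.38 (adjusted p = 3.51e-12). H2-Aa was higher by 4.18 ± 0.51 (adjusted p = 2.32e-07 with edgeR), although DESeq2 gave 2.03 with an adjusted p of 0.292. Ccr9 stood least apart, at 51.9 ± 39.0 CPM in chosen wells against 22.5 ± 12.7 CPM in the rest (SD, n = 10 plates), a log2 difference of 1.31 ± 0.28 (adjusted p = 0.00112). That Ccr9 call was lost with DESeq2 (adjusted p = 0.111) and in wells thinned to 3000 UMIs (adjusted p = 0.552). Irf8, Mpeg1 and Ccr2 were thus each higher in wells they had not helped to choose, and Ccr9 was so by a smaller and less stable amount.

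The class II genes were concentrated in a few wells. MHC class II molecules are an alpha and a beta chain, held together before loading by the invariant chain Cd74 and loaded with peptide by H2-DM, and their promoters carry an upstream element called the Y box, which binds NF-Y. The promoters of H2-Aa and H2-Eb1, genes of the I-A alpha and I-E beta chains, are shown because 7 member wells expressed both with 2 further class II genes. The sequences are RefSeq's for GRCm38.p6, 250 bases before to 50 after the gene start, H2-Aa at chr17:34287774-34288073 on the minus strand and H2-Eb1 at chr17:34305617-34305916 on the plus strand. Capitals mark the Y box letters CTGATTGG, searched on both strands.
H2-Aa: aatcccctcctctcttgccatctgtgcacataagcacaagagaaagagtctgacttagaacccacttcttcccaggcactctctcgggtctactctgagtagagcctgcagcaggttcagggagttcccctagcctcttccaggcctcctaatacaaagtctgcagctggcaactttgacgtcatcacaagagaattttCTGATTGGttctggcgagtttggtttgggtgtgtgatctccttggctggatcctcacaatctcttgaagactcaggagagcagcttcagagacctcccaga
H2-Eb1: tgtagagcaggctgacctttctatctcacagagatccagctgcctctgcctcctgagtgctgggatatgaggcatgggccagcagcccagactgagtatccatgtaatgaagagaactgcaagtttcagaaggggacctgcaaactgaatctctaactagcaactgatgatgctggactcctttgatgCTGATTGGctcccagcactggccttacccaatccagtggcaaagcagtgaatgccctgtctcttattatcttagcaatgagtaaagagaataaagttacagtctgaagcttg
The match began 51 bases before the gene start in H2-Aa and 62 bases before it in H2-Eb1. Of 32851 mouse promoters of this length, 4.1% hold the letters on either strand. Among class II genes, 4 of the 8 with an entry held it (H2-Aa, H2-Eb1, H2-Eb2 and H2-Oa), and among the genes that were highest in members 1 of 11 did (Plac8). A match describes letters and not binding.

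H2-Aa gave 274 UMIs in 27 member wells of 6 plates, and the 5 highest wells held 73.0% of them. The 7 wells with UMIs of H2-Aa, H2-Ab1, H2-Eb1 and Cd74 held 245 of the 274. They came from 4 plates: 2 from WT replicate 1, 2 from WT replicate 2, 2 from Rev1 knockout replicate 3 and 1 from double mutant replicate 2. No other eligible well, 0 of 2439, held UMIs of all 4 genes. H2-Aa is a score gene, so wells rich in it became members by the rule, and this 0 is a description. The class II differences given next share that tie to the rule. The highest of the 7 wells, from WT replicate 1, had 80 UMIs of H2-Aa, 46 of H2-Ab1, 27 of H2-Eb1, 45 of Cd74, 118 of the protease inhibitor Cst3, 28 of Irf8 and 30 of Mpeg1 among 15610 UMIs. In contrast, 16 of the 27 wells with H2-Aa had no UMI of the other 3 class II genes. Summed over members, H2-Eb1 was higher than in other wells by 4.17 ± 0.56 on the log2 scale (adjusted p = 2.37e-06, edgeR), on 4 of 10 plates, and Cd74 by 2.81 ± 0.52 (adjusted p = 2.12e-04). H2-Ab1 was higher by 1.42 ± 0.34 (adjusted p = 0.00332), and without WT replicate 1 this was 1.01 and no longer passed. H2-DMa, the alpha chain of the peptide loader, was spread more evenly. It had 29.1 to 128 CPM in members over 10 plates (median 69.2), against 18.1 to 52.7 CPM in other wells (median 30.0), and was higher on 10 of 10 (log2 1.13 ± 0.18, adjusted p = 1.53e-05). H2-DMb1 and H2-Ob were also higher on every plate, by 1.49 and 1.02. Of 8 class II genes tested, 6 rose in members and 0 fell, with a median log2 difference of 1.27.

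Beyond the genes of the score, members differed from other eligible wells of the same plates in 1373 of 10815 genes tested (12.7%), at an adjusted p under 0.05 in edgeR with plate as a block. Of these 730 were higher (6.75% of the tested) and 643 lower (5.95%), and the median log2 difference over all genes was -0.04. For 55 genes, all of them called, the plate values of members and other wells did not overlap. A difference in depth was not detected. Over 10 plates the median was 18188 ± 5950 UMIs in members against 19880 ± 8771 in other wells (SD, n = 10; exact permutation test, p = 0.305), while genes detected after thinning were 1541 ± 31.2 in members against 1570 ± 28.9 in other wells, lower on 10 of 10 plates (exact permutation p = 0.00195, the smallest possible). The part of depth in single gene values was not tested beyond the thinned counts: with all wells at 3000 UMIs, 244 genes were called.

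Monocyte genes had the highest median difference among the gene lists described here, although some other lists had a larger part of their genes higher. Ly86 (chr13:37345345-37419036), which encodes MD-1, the partner of the Toll-like protein RP105, had 23.4 to 141 CPM in members with a median of 54.0, against 0 to 2.94 CPM in other wells with a median of 1.35. Every plate's members lay above every plate's other wells, and the log2 difference was 5.52 ± 0.31 (adjusted p = 7.01e-15). Csf1r (chr18:61105572-61131139), the receptor for the growth factor that monocytes and macrophages need, had 18.2 to 169 CPM in members (median 133), against 3.67 to 25.8 in other wells (median 14.5). The groups overlapped through Pcna K164R replicate 2, whose members were the lowest, and the log2 difference was 3.07 ± 0.22 (adjusted p = 2.45e-12). Ms4a6c, a membrane protein of monocytes, had 10.9 to 203 CPM in members (median 90.7), against 7.59 to 32.5 in other wells (median 15.3), a log2 difference of 2.32 ± 0.23. F13a1, the A chain of coagulation factor XIII, had 0 to 211 CPM in members (median 40.9), against 1.73 to 55.1 in other wells (median 3.10). It was higher in members on 7 of 10 plates (log2 3.33 ± 0.46, adjusted p = 2.24e-06), and 5 wells held 61.6% of its member UMIs. Of 21 monocyte genes tested, 13 rose and 0 fell, with a median log2 difference of 1.96, and Cd14 and Fn1 were among those too low to test. Genes of more mature monocytes did not pass, with Lyz2 (lysozyme) at -0.44, the integrin Itgam at 0.66 and the Fc receptor Fcgr1 at 0.95.

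**Figure D2:**
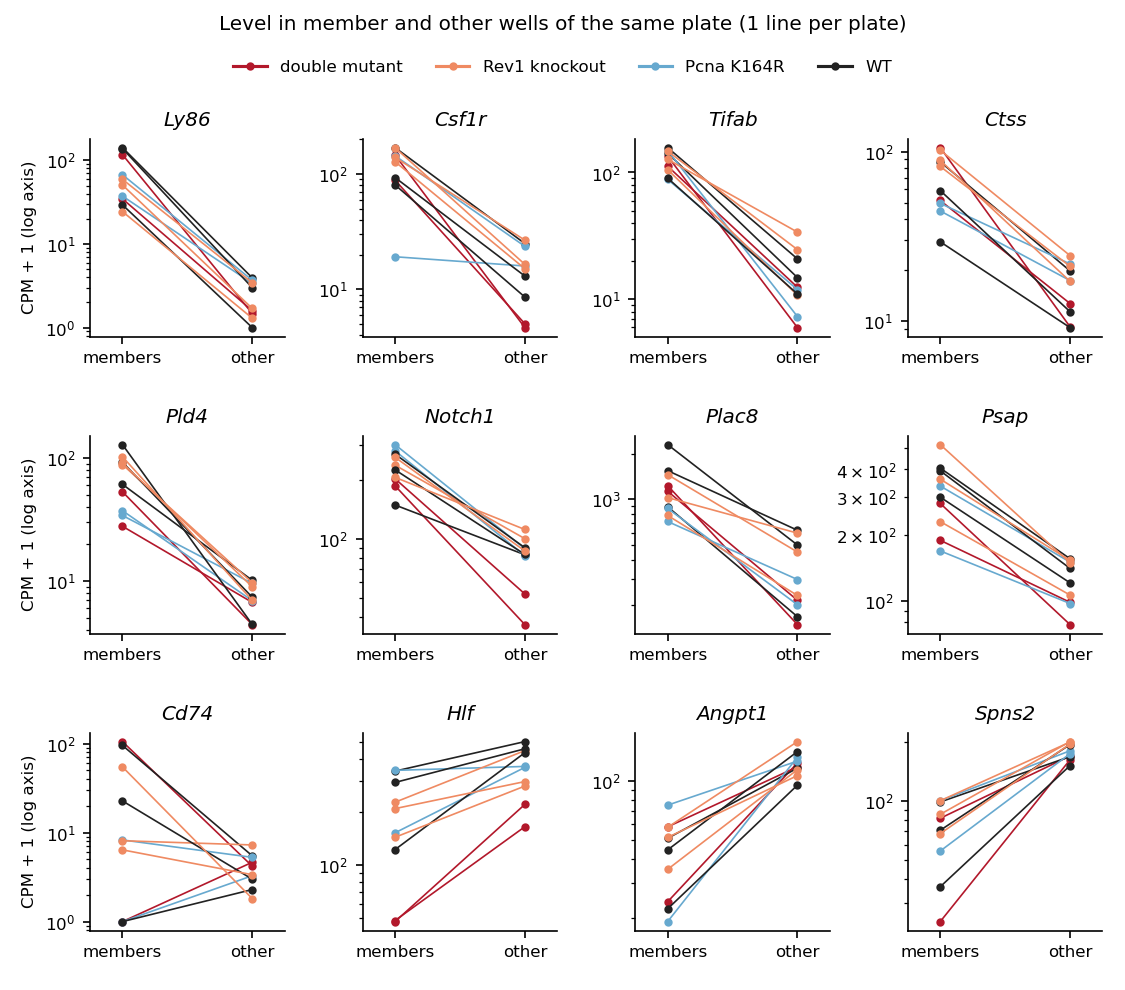
CPM + 1 (log axis) of 12 genes in members (left of each panel) and other wells (right), 1 line per plate coloured by genotype. Lines for Ly86, Tifab, Pld4, Ctss, Plac8, Psap and Notch1 fall on every plate from members to other wells, and those for Angpt1 and Spns2 climb on every plate.

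Genes of early myeloid and dendritic progenitors also rose. Tifab, an inhibitor of the TRAF-interacting adaptor TIFA, had 87.4 to 156 CPM in members (median 130), against 4.97 to 32.9 CPM in other wells (median 11.2), with no overlap and a log2 difference of 3.22 ± 0.19 (adjusted p = 1.86e-14). Plac8, a small cysteine-rich protein of myeloid and plasmacytoid cells, had 714 to 2300 CPM in members (median 1079), against 148 to 624 CPM in other wells (median 263), again without overlap (log2 1.90 ± 0.13, adjusted p = 5.27e-13). Of 16 conventional dendritic genes tested, 10 rose and 1 (the lectin gene Clec10a, at -2.08) fell, with a median log2 difference of 1.58. Flt3, the receptor whose ligand drives dendritic cell development, had 168.4 to 624.9 CPM in members (median 356), against 55.3 to 250 CPM in other wells (median 197), a log2 difference of 1.05 ± 0.10. Id2, a repressor of E proteins needed for several dendritic subsets, had 11.8 to 263 CPM in members (median 112), against 11.7 to 48.4 in other wells (median 21.1), and was higher by 2.12 ± 0.22. Ccr7, the receptor that takes dendritic cells to lymph nodes, was low but did not overlap, at 4.83 to 25.5 CPM in members (median 11.0) against 0.814 to 3.20 in other wells (median 1.52). Defining genes of mature subsets were rare: Clec9a gave 17 UMIs in 9 member wells, Xcr1 and Cd209a were too low to test, and Zbtb46 differed by -0.03 (adjusted p = 0.989).

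Of 13 plasmacytoid dendritic genes tested, 10 rose and 0 fell, with a median log2 difference of 0.94. Pld4, an endolysosomal nuclease, had 26.9 to 128 CPM in members (median 74.0), against 3.43 to 9.15 CPM in other wells (median 6.18), without overlap (log2 3.29 ± 0.23, adjusted p = 2.56e-12). Tcf4, the E protein that specifies plasmacytoid cells, was higher by 0.80 ± 0.08. Cox6a2, a subunit of cytochrome oxidase, had 0 to 87.5 CPM in members (median 22.5), against 0 to 3.80 CPM in other wells (median 1.27), and was higher by 4.07 ± 0.40. Siglech, a surface lectin of plasmacytoid cells, was higher by 4.12 ± 0.50, with UMIs in 21 member wells, 5 of which held 59.3% of them. Spib, a transcription factor of these cells, differed by 1.56 without passing (adjusted p = 0.119).

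Other groups of the innate system rose in part. Transcription factor genes of the myeloid and dendritic lines had 15 of 22 higher and 1 lower, with a median log2 difference of 0.74. Ikzf1 (Ikaros) was higher by 0.60 without overlap and Sfpi1 (PU.1) by 0.70, while Gfi1, a repressor that favours granulocytes, was lower by -0.70 (adjusted p = 0.0034). Of 17 cytokine receptor genes, 10 rose and 2 fell, with a median of 0.42. Il7r, the interleukin-7 receptor chain of lymphoid progenitors, had 7.24 to 75.5 CPM in members (median 36.9), against 0.431 to 12.1 CPM in other wells (median 4.22), a log2 difference of 3.01 ± 0.34. Of 17 chemokine and migration genes, 14 rose and 1 fell, with a median of 1.11, among them the integrin Itgal (1.12) and the Cxcl12 receptor Cxcr4 (1.11). Of 10 Fc receptor and ITAM genes, 5 rose and 0 fell, with a median of 0.56, among them the adaptor Tyrobp (1.54 ± 0.13) and the lectin Clec12a (2.02). Of 11 innate sensing genes, 4 rose and 1 fell, with a median of 0.45. Unc93b1, the chaperone of the endosomal Toll-like receptors, had 63.9 to 99.5 CPM in members (median 78.0), against 15.6 to 39.6 CPM in other wells (median 28.7), and Tlr7 was higher by 1.96.

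Of 16 lysosomal genes, 7 rose and 1 (Cd63, at -1.27) fell, with a median log2 difference of 0.14. Psap, the precursor of the saposins that aid lipid breakdown in lysosomes, had 168.5 to 519 CPM in members (median 316), against 76.9 to 155 CPM in other wells (median 130), with no overlap (log2 1.32 ± 0.09, adjusted p = 5.27e-13). Ctss, the protease cathepsin S that trims the invariant chain, had 28.4 to 104 CPM in members (median 69.3), against 8.18 to 23.4 CPM in other wells (median 16.3), with no overlap (log2 2.14 ± 0.17, adjusted p = 6.40e-11). Of 34 interferon-stimulated genes, 12 rose and 0 fell, with a median of 0.36, among them Trim30a (0.57), Mx1 (1.68) and Irf7 (0.94). Ifnar2, a chain of the type I interferon receptor, had 148 to 194 CPM in members (median 183), against 75.9 to 106 CPM in other wells (median 82.8), with no overlap. Of 11 MHC class I genes, 4 rose and 0 fell, with a median of 0.26.

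Lymphoid genes rose in the same sums. Of 14 lymphoid priming genes tested, 10 were higher and 0 lower, with a median log2 difference of 1.05. Notch1, the receptor that commits progenitors to the T lineage, had 148 to 302 CPM in members (median 231), against 35.5 to 111 CPM in other wells (median 84.1), without overlap (log2 1.504 ± 0.11, adjusted p = 2.57e-12). Satb1, a chromatin organiser of early lymphoid cells, was higher by 1.30 without overlap, and Mef2c by 0.63. Klrd1, the natural killer receptor chain CD94, was higher by 4.31 ± 0.49 from 58 UMIs in 33 member wells, and Lck, a T cell kinase, by 1.20; of 5 T and innate lymphoid genes, 2 rose and 0 fell, with a median of 1.20. Of 10 B lineage genes, 2 rose (Cd79b, Ebf1) and 1 (Cd24a) fell, with a median of 0.65, and Ebf1 no longer passed without Pcna K164R replicate 1. The B list summed to 1.91 to 9.87 UMIs per 10000 in members (median 3.96), against 4.20 to 11.0 in other wells (median 5.07), with Pax5 at 0 in members. The T list summed to 0.655 to 2.81 UMIs per 10000 in members (median 0.864), against 0.429 to 0.741 in other wells (median 0.465), with Tcf7, Gzmb and Tbx21 at 0 in members. The part of these cells' genes in the values above was not tested.

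**Figure D3:**
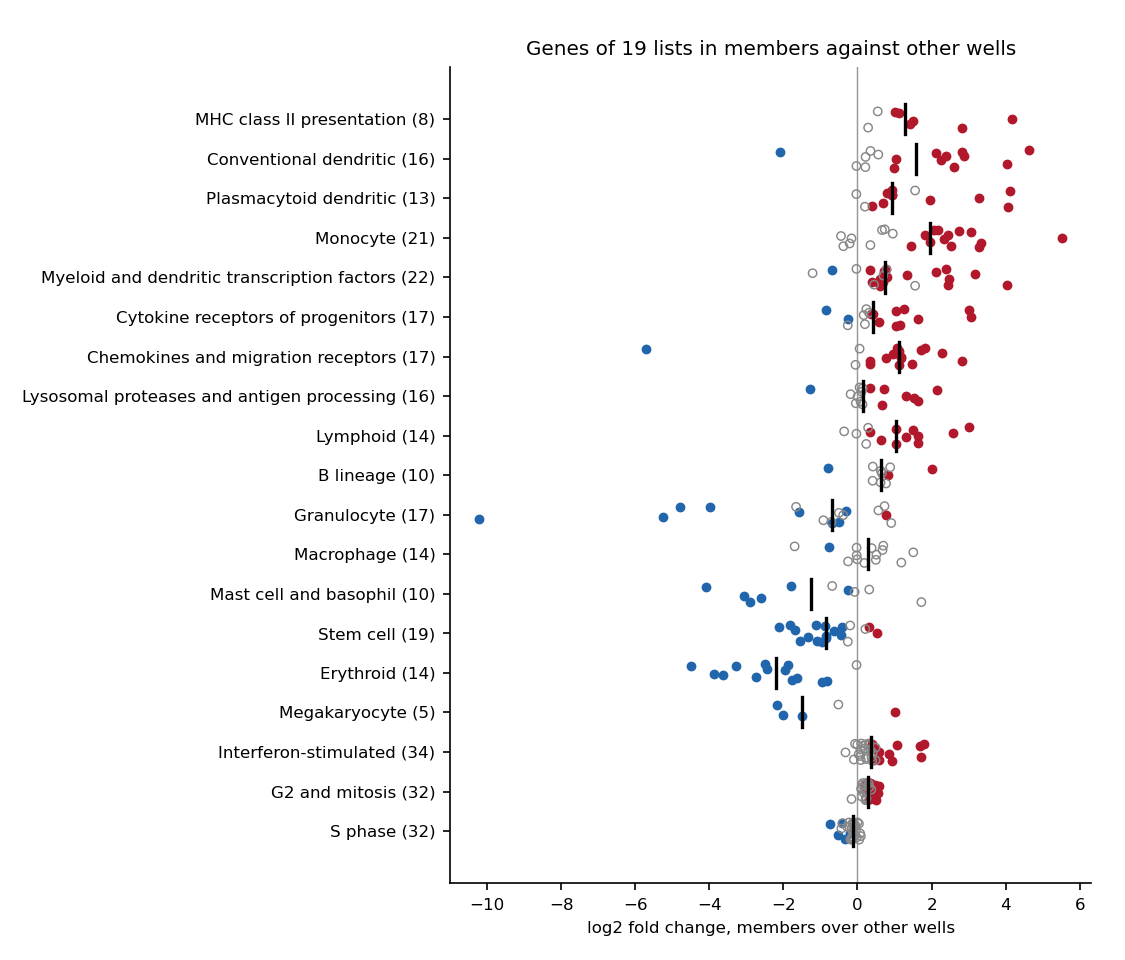
Log2 difference of members over other wells for each tested gene of 19 lists, with the number tested in brackets. Filled red points are genes higher past adjusted p 0.05, filled blue points lower, open points neither, and the black bar is the list's median. The monocyte list has its median at 1.96 and the erythroid list at -2.20.

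Stem cell and erythroid genes were lower, as the plot of gene lists shows. Of 19 stem cell genes tested, 14 fell and 2 rose, with a median log2 difference of -0.86. Hlf, a transcription factor of stem cells, had 46.4 to 342 CPM in members (median 179), against 163 to 499 CPM in other wells (median 358), and fell by 0.87 ± 0.11 on the log2 scale (adjusted p = 7.13e-07). Angpt1, the ligand of Tie2, had 18.2 to 74.0 CPM in members (median 46.7), against 93.9 to 157 CPM in other wells (median 119), without overlap (log2 -1.43 ± 0.13, adjusted p = 8.22e-10). Spns2, a transporter of sphingosine 1-phosphate, had 23.2 to 99.6 CPM in members (median 75.4), against 151 to 201 CPM in other wells (median 177), also without overlap (log2 -1.26 ± 0.11, adjusted p = 3.26e-10). Mecom was lower at -1.33 and Mllt3 at -1.11, whereas Ly6a, which encodes Sca-1, was higher by 0.53 ± 0.13 (adjusted p = 0.00366). Of 14 erythroid genes, 13 fell and 0 rose, with a median of -2.20, among them the carbonic anhydrase Car1 (-2.73). The list summed to 2.97 to 13.4 UMIs per 10000 in members (median 4.61), against 2.85 to 21.9 in other wells (median 10.7). Of 5 megakaryocyte genes, 3 fell and 1 (Plek) rose, with a median of -1.50.

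Granulocyte genes moved in both directions, and mast cell genes that passed were lower. Of 17 granulocyte genes, 8 fell and 1 (Mpo) rose, with a median log2 difference of -0.70. S100a8, a calcium-binding protein of neutrophils, had 0 to 35.5 CPM in members (median 2.997), against 0 to 1397 CPM in other wells (median 57.5), a difference of -4.78 ± 0.24. In the other wells of WT replicate 3, the plate with 1397 CPM, 5 wells held 91.6% of the S100a8 UMIs. Mpo, the myeloperoxidase of granulocyte and monocyte progenitors, had 178 to 1787 CPM in members (median 765), against 231 to 2153 CPM in other wells (median 351). Its difference of 0.77 ± 0.23 (adjusted p = 0.0252), higher on 7 of 10 plates, was lost when any one of 6 plates was left out, the lowest value being 0.60 without double mutant replicate 1, and with DESeq2. The granule protease genes of the same progenitors did not pass: Prtn3 had 124 to 656 CPM in members (median 361), against 128 to 1322 CPM in other wells (median 226), a difference of 0.56 (adjusted p = 0.0979), and Ctsg differed by 0.91 (adjusted p = 0.0964). The granulocyte list summed to 13.2 to 44.8 UMIs per 10000 in members (median 19.5), against 15.5 to 110.7 in other wells (median 21.8), with Camp and Retnlg at 0 in members. Of 10 mast cell genes, 6 fell and 0 rose, with a median of -1.24, among them the carboxypeptidase Cpa3 (-2.61). The Cpa3 UMIs of other wells lay mostly in 5 wells of a plate. These held 83.9% of 2286 UMIs on Pcna K164R replicate 2 and 96.7% of 1190 on Rev1 knockout replicate 1. On Rev1 knockout replicate 3, with 25 Cpa3 UMIs, 5 wells held 68%. The mast list summed to 1.76 to 10.3 UMIs per 10000 in members (median 3.90), against 3.11 to 27.9 in other wells (median 8.96).

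Markers of the other cells that fetal liver could add were counted in the same way. Of 14 macrophage genes, 1 (the iron exporter Slc40a1, at -0.78) fell and 0 rose, with a median log2 difference of 0.28, and the Slc40a1 call was lost when any one of 4 plates was left out and turned to 2.51 when wells rich in C1q were not set aside. The macrophage list summed to 0.693 to 3.14 UMIs per 10000 in members (median 1.73), against 1.35 to 3.003 in other wells (median 1.93). Of 4 hepatocyte genes 0 passed, with a median of 0.47. Of 4 endothelial genes 1 rose and 2 fell, with a median of 0.01, and Tek, the Tie2 receptor that stem cells also carry, was lower at -2.42 without overlap.

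Cell cycle genes moved by small amounts. Of 32 G2/M genes, 15 rose and 0 fell, with a median log2 difference of 0.28, among them Top2a (0.43), Cenpf (0.50), Nusap1 (0.48) and Kif23 (0.59). Of 32 S-phase genes, 5 fell and 0 rose, with a median of -0.13, among them the cyclin gene Ccne1 (-0.73) and the clamp gene Pcna itself (-0.21 ± 0.06, adjusted p = 0.0102, not passing without Pcna K164R replicate 2). Of 21 p53 target genes, 2 rose and 1 fell, with a median of -0.21, and Cdkn1a differed by -0.21 (adjusted p = 0.696). Of 12 immediate early genes, 1 rose and 0 fell, with a median of 0.11. Rev1 differed by -0.26 between members and other wells (adjusted p = 0.739), and Kit by -0.25 ± 0.08 (adjusted p = 0.0452), a call lost when any one of 8 plates was left out.

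Members were then set against wells chosen for macrophage, granulocyte and lymphoid genes. Each of these classes was chosen by genes of its own lineage, and members by the score genes. Genes that go with those used in either choice are tied to it. Their counts and p-values below therefore describe the classes and are no test of them. The 160 wells with at least 5 C1q UMIs per 10000 are macrophage-scored wells that the eligibility rule left out. On 9 plates, 185 member and 152 C1q wells differed in 2833 of 8347 genes tested (33.9%). Of 16 macrophage genes, 16 were lower in members and 0 higher, with a median log2 difference of -4.71. Slc40a1 had 0 to 27.2 CPM in members (median 9.36), against 279 to 1406 CPM in C1q wells (median 560), without overlap (log2 -5.39 ± 0.18, adjusted p = 2.94e-16). Marco, a scavenger receptor, was lower at -7.13 ± 0.30. Progenitor genes were higher: Flt3 had 172 to 642 CPM in members (median 335), against 0 to 132 CPM in C1q wells (median 39.5), a log2 difference of 3.07 ± 0.24. The monocyte list split, with 5 genes higher in members (F13a1 and Ms4a6c among them) and 10 lower (Csf1r, Fcgr1 and Cybb among them) of 20, and the F13a1 call was lost without Rev1 knockout replicate 3 (1.52).

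Granulocyte-scored wells were the top 8% by Mpo, Elane, Prtn3, Ctsg and Ms4a3, and 40 members (18.9%) were also among them. With wells in both classes left out, 162 members and 114 granulocyte-scored wells on 8 plates differed in 936 of 7121 genes (13.1%). Pld4 had 22.8 to 141 CPM in members (median 50.1), against 0 to 5.13 CPM in granulocyte-scored wells (median 2.79), without overlap (log2 4.47 ± 0.37). Of 8 plasmacytoid genes 7 were higher in members and 0 lower, of 13 lymphoid genes 11 and 0, of 8 B lineage genes 7 and 0, and of 6 class II genes 4 and 0. Of 9 granulocyte genes outside the score, 0 were higher and 9 lower, and of 8 Fc receptor and ITAM genes 0 and 4. Rab44, a GTPase of granule-bearing cells, was lower in members at -4.13 ± 0.33. Median UMIs were 13504 in members and 25204 in granulocyte-scored wells, and the part of that gap in these calls was tested only by thinning, which left 68 calls.

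Lymphoid-scored wells, the top 8% by Dntt, Il7r, Satb1, Rag1 and Notch1, gave the fewest differences of the 3 comparisons. They included 75 of the 212 members (35.4%), and Ccr9 was seen in 24.8% of the 137 that were not members. With the shared wells left out, 132 members and 136 lymphoid-scored wells on 9 plates differed in 200 of 7276 genes (2.75%). Ctsg, the granule protease cathepsin G of myeloid progenitors, had 34.2 to 768 CPM in members (median 150), against 0 to 43.1 CPM in lymphoid-scored wells (median 14.9), a log2 difference of 4.09 ± 0.27 (adjusted p = 1.64e-13). F13a1 was higher in members by 4.05, Ly86 by 3.90, Cybb by 3.83 and Ms4a6c by 2.70. Of 15 monocyte genes 10 were higher and 0 lower, and of 9 B lineage genes 0 were higher and 9 lower, with a median of -3.39. The surrogate light chain genes Vpreb3 (-3.96) and Igll1 (-3.19) and the B cell receptor chain Cd79a (-3.83) were among those lower in members.

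Members were then described by which score genes they held. Members with a UMI of a score gene were compared with members without it on plates with at least 3 wells of each. Since a member without one score gene must hold others to reach the score, the rule itself ties these splits to each other and to genes that go with the score genes. The values and counts of this description are therefore no test, and nothing is read from the shares of genes counted. For Ccr9, 117 wells with and 87 without on 9 plates had 243 of 5878 genes at an adjusted p under 0.05 (4.13%), and 18 in thinned wells. Hoxa9, a homeobox gene of stem cells and early progenitors, had 134 to 462 CPM in wells with Ccr9 (median 201), against 47.6 to 167 CPM in wells without (median 59.4), a log2 difference of 1.70 ± 0.20. Gimap6, a GTPase of lymphoid cells, had 222 to 357 CPM in wells with Ccr9 (median 274), against 37.1 to 195 CPM in wells without (median 76.4), with no overlap (log2 1.52 ± 0.21). F13a1 had 0 to 19.7 CPM in wells with Ccr9 (median 0), against 0 to 590 CPM in wells without (median 105), a difference of -5.002 ± 0.39. The median log2 difference was -1.96 over 11 monocyte genes, -1.69 over 8 granulocyte genes and 0.71 over 13 lymphoid genes.

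In the split by Mpeg1, monocyte genes were higher and Hoxa9 lower in the wells with the gene. On 9 plates, 88 wells with and 116 without had 225 of 5906 genes counted by the same rule (3.81%). Ly86 had 40.3 to 224 CPM in wells with Mpeg1 (median 114), against 0 to 11.9 CPM in wells without (median 0), with no overlap (log2 5.02 ± 0.39). Csf1r was higher by 1.96, the granule protease Prtn3 by 1.73 and the integrin Itga4 by 1.28, while Hoxa9 was lower at -1.69 and Hlf at -1.28. The median was 2.16 over 10 monocyte genes and -1.01 over 14 stem cell genes. Median UMIs were 20119 in wells with Mpeg1 and 11840 in wells without, and 29 genes were counted in thinned wells.

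For Irf8, 140 wells with and 64 without on 9 plates had 235 of 4972 genes counted (4.73%), and 14 in thinned wells. Ctsg was higher in wells with Irf8 by 3.82, Prtn3 by 2.55, Mpo by 2.14 and Ly86 by 4.70 ± 0.54, while Gimap6 (-1.33, no overlap) and Hoxa9 (-1.68) were lower. For Ccr2, 40 wells with and 128 without on 6 plates had 101 of 6344 genes counted (1.59%). Median UMIs were 23575 in wells with Ccr2 and 12540 in wells without, and 11 genes were counted in thinned wells. Csf1r was higher in wells with Ccr2 by 1.89, Id2 by 2.04, the adaptor Tyrobp by 1.51 and the semaphorin receptor Nrp1 by 3.52, while Gimap6 (-1.40) and the interferon-induced Ifit1 (-1.90) were lower. For H2-Aa, 22 wells with and 77 without on 3 plates had 15 of 5814 genes counted (0.258%). Cd74 had 69.4, 235 and 322 CPM in wells with H2-Aa on the 3 plates, against 2.83 to 6.25 CPM in wells without (log2 5.62 ± 0.54). H2-Eb1 was higher by 6.48, H2-Ab1 by 5.32, Cst3 by 2.11 and Cadm1, an adhesion molecule of dendritic cells, by 3.66, while Ctsg was lower at -1.91.

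**Figure D4:**
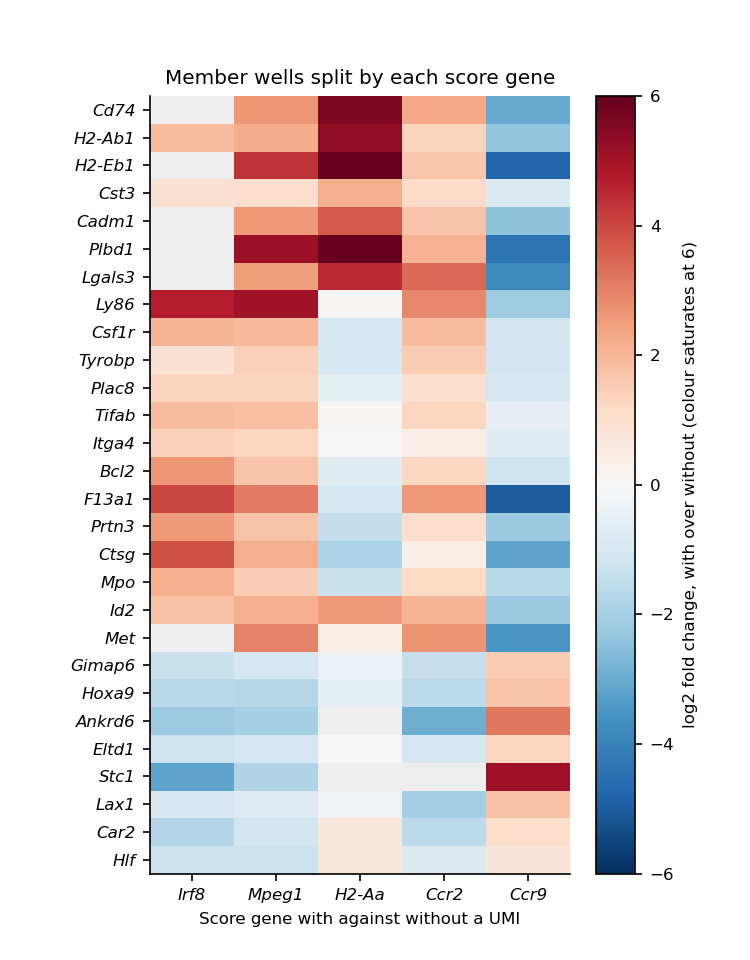
Log2 difference of members with over members without a UMI of each score gene (columns) for 28 genes (rows). Red is higher in wells with the gene and blue lower, colour saturates at 6 and grey was not fitted. Ly86 is red under Irf8 and Mpeg1, and F13a1 and Prtn3 are blue under Ccr9.

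The ends of this range, also described without a test, were far apart. The 46 wells with Ccr9 alone held 1.47 CPM of Ly86, 32.3 of Csf1r, 1.47 of F13a1 and 52.8 of Prtn3 in their summed counts, beside 406 CPM of Hoxa9, 375 of Gimap6, 367 of Notch1 and 353 of Hlf. The 50 wells with Irf8 and Mpeg1 but no Ccr9 held 189 CPM of Ly86, 221 of Csf1r, 245 of F13a1 and 835 of Prtn3, beside 52.1 CPM of Hoxa9, 68.5 of Gimap6, 163.959 of Notch1 and 78.9 of Hlf. Other eligible wells held 1.34 CPM of Ly86, 12.9 of Csf1r, 125 of Hoxa9, 70.5 of Notch1 and 310 of Hlf. Among the groups given so far, the monocyte markers Ly86, Csf1r and F13a1 were thus highest in wells with Irf8 and Mpeg1 but no Ccr9. Wells with Irf8, Mpeg1 and Ccr9 only (14) held 50.3 CPM of Ly86, 2.29 of F13a1 and 64.0 of Csf1r. Those that also held Ccr2 (7) had 152 CPM of Ly86 and 34.3 of F13a1. Their Csf1r, at 480 CPM, was above the 221 CPM of wells with Irf8 and Mpeg1 but no Ccr9. Wells with Irf8 and Ccr9 only (31) held 0 CPM of Ly86 and F13a1, beside 58.1 of Csf1r and 280 of Notch1. Wells with Ccr9 alone were near other wells in Ly86 and above them in Notch1 and Hoxa9. They were also above other wells in Csf1r, Pld4 (61.6 against 6.45 CPM), Tcf4 (411 against 149) and Flt3 (549 against 149). The label of dendritic and monocyte priming therefore did not hold evenly over members.

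The share of members differed between plates and sessions. In the double mutant 3.11%, 2.12%, 20% and 0% of eligible wells were members on replicates 1 to 4, in the Rev1 knockout 7.62%, 13.1% and 16.6%, in Pcna K164R 6.80% and 6.10%, and in WT 9.82%, 12.8% and 7.19%. Double mutant replicate 3 had 15 eligible wells, giving an exact 95% interval of 4.33% to 48.1%, and was left out of the test, which asked for at least 20. In the library labelled double mutant replicate 4, 0 of 78 wells were members, with an exact 95% interval of up to 4.62% (3 counts of 78 would be 3.85%). On the plates kept, the double mutant averaged 1.74 ± 1.59% and WT 9.95 ± 2.82% (SD, n = 3 each), a difference of -8.21 percentage points without overlap. The exact two-sided permutation test gave p = 0.1, the smallest that 3 against 3 plates allows, and 0.167 adjusted over 5 pairs. With all 4 double mutant plates the difference was -3.64 points (exact permutation p = 0.571), so it rests on leaving out replicate 3. The plates kept also differed in depth. Median UMIs of other wells were 32706.5, 37159 and 26173.5 on double mutant replicates 1, 2 and 4. On WT replicates 1 to 3 they were 15304, 8864 and 12638. The part of depth in the shares was not tested beyond the thinned score given below.

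Against the single mutants, the double mutant was lower by 10.7 points than the Rev1 knockout and by 4.71 points than Pcna K164R, each at an exact permutation p of 0.1. The Rev1 knockout averaged 12.4 ± 4.52% and WT 9.95 ± 2.82% (SD, n = 3 each; exact permutation p = 0.4), and Pcna K164R averaged 6.45 ± 0.494% (SD, n = 2; exact permutation p = 0.2 against WT). Within session 1, the double mutant plates had 3.11% and 2.12%, the Pcna K164R plates 6.80% and 6.10%, and the WT plate 9.82%. Within session 3, the library labelled double mutant replicate 4 had 0%, the Rev1 knockout plates 13.1% and 16.6%, and the WT plates 12.8% and 7.19%. Members were 5.80% of 1449 wells in session 1, 8.18% of 330 in session 2 and 11.6% of 872 in session 3. With the score computed after thinning to 3000 UMIs, the order changed: double mutant replicates 1 and 2 had 7.14% and 3.81%, and the double mutant differed from WT by -5.70 points with overlapping plates (exact permutation p = 0.2). The differences from WT turned with that score, to -3.24 points for the Rev1 knockout, against 2.49 unthinned, and to 0.704 points for Pcna K164R, against -3.50 unthinned.

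**Figure D5:**
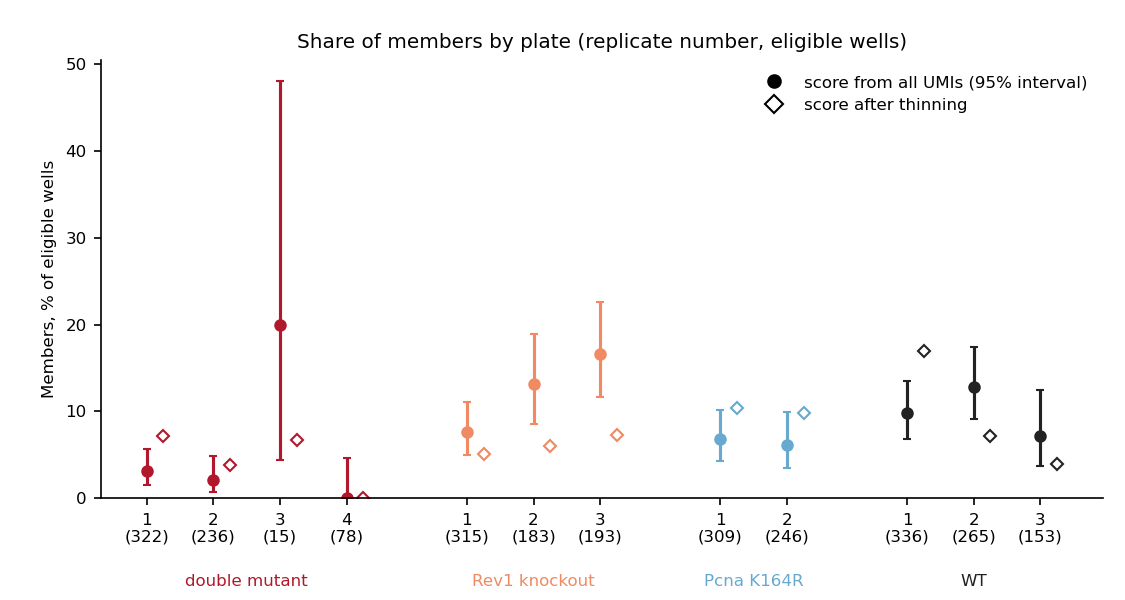
Percent of eligible wells that were members on each of the 12 plates, with exact 95% binomial intervals that cover counting error only and the number of eligible wells in brackets. Open diamonds give the share when the score was computed after thinning wells to 3000 UMIs. Double mutant replicates 1, 2 and 4 lie below every WT plate by the unthinned score, and double mutant replicate 3 has an interval of 4.33% to 48.1%.

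The makeup of members by genotype is a description. A UMI of H2-Aa was seen in 4 of 18 double mutant members, 7 of 80 Rev1 knockout members, 0 of 36 Pcna K164R members and 16 of 78 WT members. A count of 0 of 36 allows a share of wells with a UMI of up to 8.33% (3 counts), which does not limit the share of cells that express the gene. Irf8 was seen in 10 of 18, 53 of 80, 25 of 36 and 55 of 78, in the same order of genotypes. Ccr9 was seen in 9 of 18, 53 of 80, 23 of 36 and 37 of 78.

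Genotypes were also compared within members, on 2 or 3 plates each. With session as a term, 14 of 8210 genes passed for the double mutant against WT (0.171%), 14 for the Rev1 knockout (0.171%) and 7 for Pcna K164R (0.0853%), and counts this low do not show that the genotypes were alike. The double mutant and Pcna K164R plates in this fit were all of session 1, where WT replicate 1 was the only WT plate, so these contrasts rest on 1 WT library, assumed to vary like the others. That of the Rev1 knockout rests on session 3, with 2 plates against 2. With no session term, 11 genes passed for the double mutant, 6 for the Rev1 knockout and 0 for Pcna K164R. In the double mutant, Kpna2, an importin that peaks in dividing cells, had 843 and 758.5 CPM, against 194, 215 and 170 CPM in WT members (log2 2.04 ± 0.33, adjusted p = 0.00805). Ube2c, the ubiquitin-conjugating enzyme of the anaphase-promoting complex, had 806 and 782 CPM in double mutant members, against 269, 241 and 258 CPM in WT members (log2 1.56 ± 0.31, adjusted p = 0.0339). Cyclin B1 (Ccnb1) was higher by 1.64 ± 0.34 (adjusted p = 0.0415), and the Ube2c and Ccnb1 calls were each lost without either double mutant plate. Hlf had 46.5 and 47.0 CPM in double mutant members, against 336, 292 and 125 CPM in WT members (log2 -2.84 ± 0.49, adjusted p = 0.00962), a call lost without double mutant replicate 1 (-2.83). Each of the double mutant values lay outside the range of WT members, and they rest on 15 wells of 2 plates. Kpna2 was also at 559 and 510.5 CPM in other wells of those double mutant plates, against 186, 188 and 232 CPM in other wells of WT. Hlf was at 163 and 219 CPM in other wells of those double mutant plates, against 499, 454 and 432 CPM in other wells of WT. A test of whether the Hlf gap differed between members and other wells did not pass (-1.17 ± 0.40, edgeR adjusted p = 0.515).

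In Rev1 knockout members, Tmsb10, which encodes the actin-binding thymosin beta 10, had 878, 1008 and 1366 CPM, against 832, 277 and 494 CPM in WT members (log2 1.69 ± 0.28, adjusted p = 0.00514). Rrm2, a subunit of ribonucleotide reductase, had 180, 128 and 119.5 CPM in Rev1 knockout members, against 205, 646.5 and 383 CPM in WT members (log2 -2.10 ± 0.28, adjusted p = 3.55e-04). Without WT replicate 2 both calls were lost, at 1.27 and -1.63. Xist, expressed from the inactive X chromosome, was higher by 10.22, and the Y-linked Ddx3y was lower at -9.10, in the Rev1 knockout, so that the genotype and the sex of the embryos cannot be told apart in this comparison. The other mutants differed from WT in these genes too. Over eligible wells, Xist stood at 67.6 and 59.8 CPM in double mutant replicates 1 and 2 and at 0.259 and 349 CPM in Pcna K164R, against 0.155, 1.09 and 0.842 CPM in WT. Ddx3y stood at 49.2 and 88.7 CPM in double mutant replicates 1 and 2 and at 125 and 0 CPM in Pcna K164R, against 164.9, 161 and 125 CPM in WT. The part of sex in the double mutant and Pcna K164R comparisons was not tested. In Pcna K164R members, Rag1 (chr2:101638252-101649532), a recombinase of lymphoid progenitors, had 59.9 and 275.8 CPM, against 8.53, 12.1 and 7.37 CPM in WT members (log2 4.20 ± 0.83, adjusted p = 0.040). A single well of Pcna K164R replicate 2 held 27.6% of all Rag1 UMIs of members, and without that plate the difference was 2.78 and no longer passed. The 6 genes that were lower in Pcna K164R members were the mitochondrial mt-Rnr1, Lars2, Mir5109, the metallothioneins Mt1 and Mt2, and Rn45s, the ribosomal RNA precursor. These calls rest on WT replicate 1, which stood apart. Rn45s was at 16850 and 4219 CPM in Pcna K164R members, against 75430, 8704 and 8067 CPM in WT members, and mt-Rnr1 was at 3456 and 2066 CPM, against 9990, 2106 and 1939 CPM. WT replicates 2 and 3 were thus near or within the range of Pcna K164R. For the double mutant, mt-Rnr1 (log2 -2.27) and Lars2 (-2.07) were also among the calls, mt-Rnr1 with the smallest p of all. Double mutant members averaged 2072.5 CPM of mt-Rnr1, likewise near WT replicates 2 and 3 and far below WT replicate 1.

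Whether genotype differences differed between members and other wells of the same plates was tested as an interaction. For the double mutant against WT 4 of 10823 genes passed (0.037%), for the Rev1 knockout 0 (0.0%, with 377 at an unadjusted p under 0.05 and 0 by DESeq2) and for Pcna K164R 3 (0.0277%). Satb1 in the double mutant was at 245.5 and 347 CPM in double mutant members, against 269, 263 and 531 CPM in WT members. In other wells it was at 62.5 and 44.9 CPM in the double mutant, against 165, 171.5 and 167.5 CPM in WT. The genotypes were thus apart among other wells and overlapped among members (difference of differences 1.49 ± 0.27, adjusted p = 0.0103). Without double mutant replicate 2 this was 1.06 and without WT replicate 2 it was 1.38, and neither passed. Mycn, a relative of Myc in stem cells, had 59.7 and 23.5 CPM in double mutant members against 237, 306 and 199 CPM in WT members, and 244 and 228 CPM in double mutant other wells against 343, 543 and 412 CPM in WT other wells (-1.62 ± 0.32, adjusted p = 0.0314). Mycn no longer passed without double mutant replicate 2 (-1.25), WT replicate 1 (-1.45) or WT replicate 2 (-1.61), and its difference was 1.36 when the top 8% was taken within each plate. For Pcna K164R, Rag1 (5.63 ± 1.00) and the B cell receptor chain Cd79a (6.55 ± 1.19) passed at an adjusted p of 0.0197. Cd79a had 84.8 and 43.0 CPM in Pcna K164R members, against 1.71, 0 and 0 CPM in WT members, and 1 well of Pcna K164R replicate 1 held 36.1% of its member UMIs. Neither passed without WT replicate 1 or WT replicate 2, and Rag1 did not pass without Pcna K164R replicate 2 (4.13).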

How the data were processed

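Per the labels' protocols, cells were sorted into plates and processed with SORT-seq, which tags mRNA 3' ends with a well barcode and a UMI. The submitters' processing notes name BWA 0.7.15 and the mouse build mm10 (GRCm38). Which tool counted the UMIs, and over which annotation, is not given in the sources used here. The authors deposited, per plate, a table of observed UMI counts in 384 wells, used throughout, and a table of transcript numbers (estimated counts, corrected by the authors for UMI saturation), which were rounded and used as an alternative. ERCC rows, the spiked-in RNA, stayed out of totals. All plates use the same 384 well barcodes, so a barcode names a well only together with its plate. Each well was sorted as 1 cell, and no doublet caller was run.

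The members and gene lists were chosen with earlier results of these data known. UMI counts were summed per plate and class, so that the plate is the replicate, and tested with edgeR 4.0.16 (R 4.3.3; quasi-likelihood F-test, TMM, filterByExpr) with plate as a block, or session as a term between genotypes. Plates needed 5 wells of each class (3 for C1q wells and for splits by a score gene). The p-values were adjusted by Benjamini-Hochberg over all genes tested. Genes of a class's own rule were left out, except in the comparisons of genotypes within members and in the interaction, where they stayed in. Plate as a block follows from the design, since each plate gives both classes. Shares and depth were tested by exact two-sided permutation over plates. Named genes were the 15 higher and 10 lower genes with the smallest p, 8 in each direction in other comparisons, and up to 4 per list. Alternatives were DESeq2 1.42.0, RLE scaling, no filter, transcript counts, thinning to 3000 UMIs, a minimum of 5000 UMIs, thresholds of 5% and 12%, no C1q limit, and leaving out each plate. The scripts were checked on simulated counts with an assumed dispersion. Members against other wells called 77 of 100 genes changed 2-fold and 100 of 100 changed 4-fold. The double mutant fit within members called 0 and 5 of 100, with 1 false call (16.7% of calls). The double mutant interaction called 0 and 8 of 100. These 2 fits thus missed most changes of that size. No 2 plates of a genotype were copies, as their counts differed by a chi-square of 8.27 to 443 per degree of freedom. Read count tables were not used. Some genes are not reported here.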

Additional observations from a re-analysis of the deposited data

Results flagged for a closer look

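Among 51 sets of plate values examined, 8 held a plate far from the others, where chance gives about 5% of independent sets. The sets were not independent, since several genes were flagged in other wells of the same plate, WT replicate 3. The count is therefore not read as an excess. The share of members in the double mutant was 20% on replicate 3, from 15 eligible wells, against a median of 2.61% over its plates. Plac8 reached 2300 CPM in members of WT replicate 2. In other wells of WT replicate 3, Ncf1 stood at 146.4 CPM, S100a8 at 1397 CPM, S100a9 at 918.5 CPM, Stfa1 at 306.2 CPM and Camp at 573.6 CPM, and 5 wells of that plate held 91.6% of the S100a8, 93.9% of the S100a9, 95.9% of the Stfa1 and 98% of the Camp UMIs. The globin Beta-s reached 487.6 CPM in members of double mutant replicate 2.

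A genotype difference that differed between members and other wells was seen for 7 genes by the edgeR test of the interaction. For Pcna K164R against WT the difference of log2 differences was 5.63 for Rag1, 6.55 for Cd79a and 2.54 for Mzb1 (adjusted p = 0.036). For the double mutant against WT it was 1.19 for Grk4, 1.49 for Satb1, 0.84 for Kcnq1ot1 and -1.62 for Mycn. Each of the 7 calls was lost when at least 1 of the plates was left out.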

How the results depend on the processing

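The comparison of members with other wells (1373 genes) called 244 in wells thinned to 3000 UMIs, and 529 without the plate as a replicate block, and 1088 to 1340 with 1 plate left out, the lowest without Rev1 knockout replicate 3. No paired analysis between genotypes was possible because the replicate numbers only name plates. Thinning also left 357 calls against C1q wells, 68 against granulocyte-scored wells and 18 against lymphoid-scored wells, and 14, 29, 11 and 18 in the splits by Irf8, Mpeg1, Ccr2 and Ccr9; DESeq2 gave 514 and 83 against granulocyte- and lymphoid-scored wells. With 1 plate left out the ranges were 2256 to 2837 against C1q wells, 753 to 892 against granulocyte-scored and 144 to 215 against lymphoid-scored wells.

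Counts by genotype were unstable. Within members, Pcna K164R against WT (7) gave 28 with no filter, 3 with DESeq2, with the thinned score and with no C1q limit, 2 with the top 8% within each plate, 0 with no session term, 16 in session 1 alone and 5 to 12 with 1 plate left out. The Rev1 knockout (14) gave 63 with no filter, 4 with DESeq2, with the thinned score and with no C1q limit, 6 with no session term, 23 in session 3 alone, and 1 (without WT replicate 2) to 36 (without WT replicate 3). The double mutant (14) gave 50 with no filter, 5 with DESeq2, 7 with the top 5%, 1 with no C1q limit, 23 within plates and 7 to 18 with 1 plate left out. The double mutant and Pcna K164R could not be fitted against WT without WT replicate 1.

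For differences between members and other wells, Pcna K164R (3) gave 23 with no filter, 0 with DESeq2, with thinned wells and with the thinned score, 16 with the top 5%, 5 within plates and 0 to 14 with 1 plate left out. The Rev1 knockout (0) gave 1 with no filter, 2 with the thinned score, 6 with the top 12% and 0 to 1 with 1 plate left out. The double mutant (4) gave 41 with no filter, 13 with RLE scaling, 8 with DESeq2, 9 with thinned wells, 1 with a minimum of 5000 UMIs, 1 with the thinned score, 17 with the top 5%, 23 with no C1q limit, 50 within plates and 0 to 20 with 1 plate left out.

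In wells chosen by the other 4 genes, H2-Aa gave 2.03 with DESeq2, and Ccr9 1.20 with DESeq2 and 0.67 in thinned wells. With 1 plate left out, Irf8 gave 3.31 to 3.49, Mpeg1 3.56 to 3.88, H2-Aa 3.72 to 4.54, Ccr2 4.82 to 5.36 and Ccr9 1.07 to 1.46. The share difference turned to -3.24 points for the Rev1 knockout and to 0.704 for Pcna K164R, each minus WT, with the thinned score, also over all plates, a setting chosen after seeing the data. With 1 plate left out it ran from -9.58 to -6.76 for the double mutant minus WT, 0.420 to 4.90 for the Rev1 knockout minus WT, -4.88 to -2.06 for Pcna K164R minus WT, -13.1 to -8.63 for the double mutant minus the Rev1 knockout and -5.39 to -3.83 for the double mutant minus Pcna K164R. The depth difference ran from -2534 to -608 UMIs, that of genes detected from -31.2 to -25.8, and that of mitochondrial percent from 0.203 to 0.382.

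Of single genes in members against other wells, DESeq2 reversed Ccl5 (0.38), Mcpt4 (1.93) and Ngp (1.49), thinned wells Cd44 (-0.044), Csf2rb (-0.064) and Cyba (-0.036), the top 12% Camp (0.13) and Ngp (3.68), no C1q limit Cdkn1a (0.44) and Slc40a1 (2.51), the top 8% within each plate Rev1 (0.073), and leaving out double mutant replicate 1 Cdkn1a (0.025, with -0.48 at the other end of its range, without Pcna K164R replicate 1). Within plates, Cd63 (0.077) and Mycn (0.66) reversed for the double mutant in members, as did Mycn (1.36) in the test of the difference, where the thinned score gave Mycn (0.36) and the top 5% Grk4 (-0.068). Hlf in the Ccr9 split gave -0.18 in thinned wells. Of the other single-gene values, 8312 kept direction and side of the threshold and 1201 kept direction only; apart from thinning, which leaves fewer UMIs, and left-out plates, the cause was not tested.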
